A study of Homo sapiens with 3 samples.

Results

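The RNA levels of 10 genes of the G1/S transition were followed in FaDu, a widely used cell line that derives from a hypopharyngeal squamous carcinoma: the D-type cyclin genes CCND1, CCND2 and CCND3, the E-type cyclin genes CCNE1 and CCNE2, the kinase genes CDK2, CDK4 and CDK6, and the inhibitor genes CDKN1A (p21) and CDKN1B (p27). The members were chosen by name, as all probe sets of the array that name exactly 1 gene, that gene being 1 of the 10. This gave 28 probe sets out of 44994 that name 1 gene, and no probe set naming several genes held a member. The genes are 10 of 18132 that the array names. The treated group was 1 array of cells kept for 48 h with NSC-631570, an extract of greater celandine (Chelidonium majus), at 10 µg/ml, a dose the submitters call the EC50. The control group was 2 arrays, here untreated 1 and untreated 2, of cells given the same volume of distilled water. All cells grew in RPMI medium with fetal calf serum, and the labels name no genetic change. Total RNA was measured on Affymetrix PrimeView arrays, and each value is a log2 signal per probe set, so that a difference of 1 is a doubling.

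A cell passes from G1 into S phase when D-type cyclins bound to CDK4 or CDK6, and then E-type cyclins bound to CDK2, phosphorylate the retinoblastoma protein and free the E2F factors, which in turn transcribe the cyclin E genes. The inhibitors p21 and p27 bind cyclin-CDK complexes and block CDK2, and p21 is the classical effector of p53 in growth arrest. In squamous carcinomas of the head and neck CCND1 is often amplified and the inhibitor gene CDKN2A is often lost. RNA levels alone do not show the activity of these proteins, which is set largely by turnover and phosphorylation.

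With 1 treated array the spread of the treated condition is unknown. Tests were made with limma over 27255 probe sets whose mean signal over the 3 arrays reached 5.85, and they take the treated spread to be that of the untreated pair. The labels do not say whether that pair came from separate cultures, and if it did not, the p-values reflect technical spread only. An exact permutation of 3 arrays cannot give a p below 0.333. Array medians lay between 6.55 and 6.62. The control probe set for the 5′ end of ACTB, a measure of RNA integrity and labelling, was 12.23 in the treated array, against 13.61 and 13.60 in untreated 1 and untreated 2, while the one for the 3′ end was 14.40, against 14.19 and 14.21. The corresponding 5′ probe set of GAPDH was 14.00 in the treated array, against 14.45 and 14.51. Of 8 epithelial markers 5 were named here, with signals from 11.49 to 13.96 in the treated array and from 10.35 to 13.48 in the untreated ones. Fibroblast markers lay between 4.27 and 6.20 in the treated array, against 4.21 to 6.21. The 4 leukocyte markers averaged 6.69 in the treated array, against 6.10 and 6.02, and all 4 were above both untreated arrays. PTPRC, the pan-leukocyte gene, was at 3.78, against 3.72 and 3.72, and the T cell gene CD3E at 6.05, against 6.04 and 5.65. Of the myeloid markers, CD68, a lysosomal protein gene, was at 9.53, against 7.61 and 8.55, and CD14 at 7.42, against 7.03 and 6.17 (limma, adjusted p = 0.085 and 0.276). The 3 endothelial markers lay between 6.57 and 7.40 in the treated array, against 6.37 to 7.79. The part of these marker and control signals in the results below was not tested.

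Of the 28 member probe sets, 16 were below both untreated arrays in the treated array, 6 were above both and 6 lay between them. CDK4 was below both on all 4 of its probe sets and CDK2 on all 3, CCND1 and CDK6 on 3 of 4, and CCND2 on 2 of 3. CCNE1 and CDKN1A were above both on each of their 2 probe sets. CCNE2, CCND3 and CDKN1B had probe sets that disagreed. The probe sets of a gene read the same RNA and are not replicates of the treatment.

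**Figure D1:**
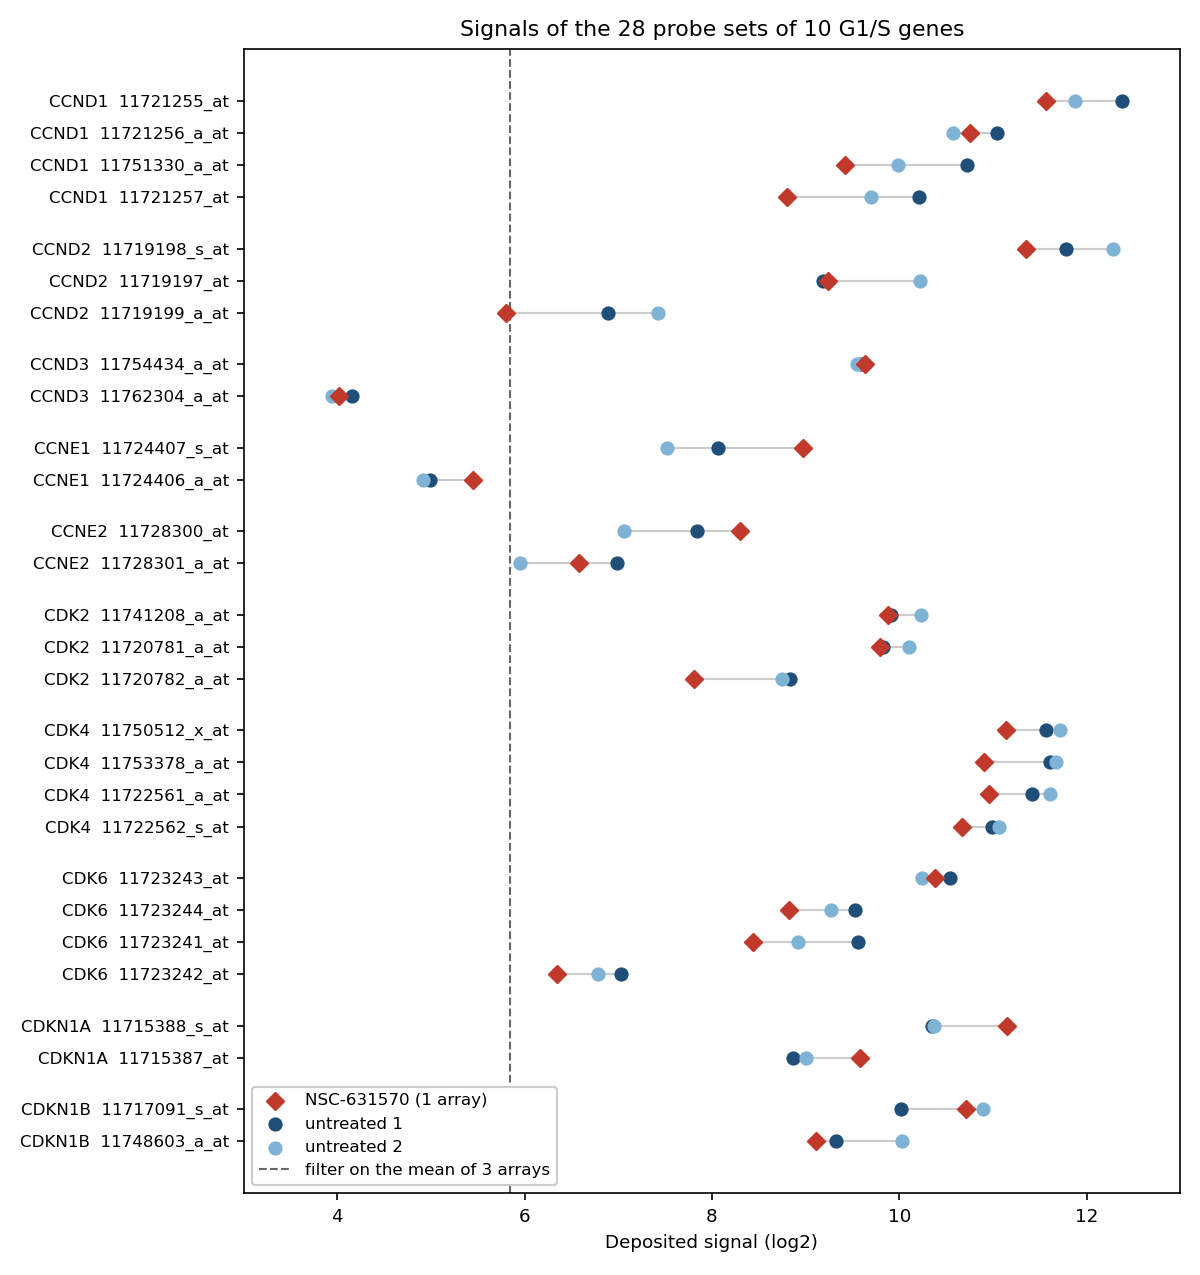
Signals (log2) of the 28 member probe sets in the 3 arrays, by gene and, within a gene, from the highest to the lowest mean signal. Diamonds are the NSC-631570 array and circles the 2 untreated arrays. Diamonds lie left of both circles for all 4 probe sets of CDK4 and right of both for the 2 of CCNE1 and the 2 of CDKN1A, and the dashed line marks the filter of 5.85.

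Only 26 member probe sets passed the filter. The dimmer probe sets of CCND3 and CCNE1 did not. Of the 26, limma called 1 lower and 0 higher at an adjusted p under 0.05, where 2.37% of all tested probe sets were called lower and 0.55% higher. The 1 call passed the filter through its untreated signals alone, so it was bound to differ in that direction. At an unadjusted p under 0.05 limma gave 10 lower (38.5% of the 26, against 9.56% of all tested) and 4 higher (15.4%, against 8.3%). By position alone 16 of 26 were below both untreated arrays (61.5%, against 34.5% of all tested) and 5 were above both (19.2%, against 40.7%). Past both untreated arrays by at least 2-fold there was 1 lower and 0 higher, beside 2.57% and 0.646% of all tested probe sets. This 1 was the same CCND2 probe set that limma called, so its direction was again bound by the filter. By at least 1.5-fold there were 4 lower (15.4%, against 6.77%) and 2 higher (7.69%, against 4.15%). The median difference of the 26 from the mean of the untreated arrays was -0.48, beside 0.03 over all tested probe sets. These shares count several probe sets per gene, and the 10 lower ones came from CCND1, CCND2, CDK2, CDK4 and CDK6 alone. With only the brightest probe set of each of the 10 members, the median was 0.02, beside 0.12 over all tested genes. By that measure 4 were above both untreated arrays and 4 below both, where the shares over all tested genes were 51.7% and 22.5%.

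Among the D-type cyclin genes, CCND1 is the one most often amplified in this tumour type. Its brightest probe set, 11721255_at, had 11.56 in the treated array, against 12.38 and 11.88 in untreated 1 and untreated 2. The dimmest, 11721257_at, had 8.81 in the treated array, against 10.21 and 9.70. In both the treated array was the lowest, and the 2 untreated arrays were themselves 0.49 and 0.51 apart. From the untreated mean, 11721257_at differed by -1.15 ± 0.27 (SE from limma, 1 treated array against 2 untreated arrays, adjusted p = 0.0716), and 11721255_at by -0.56 ± 0.27 (adjusted p = 0.326). The probe set 11751330_a_at stood at -0.94 (adjusted p = 0.176), from 9.42 in the treated array against 10.72 and 9.99. The fourth, 11721256_a_at, did not follow: its 10.75 in the treated array lay between 11.04 and 10.57. Averaged over its 4 probe sets CCND1 was 10.14 in the treated array, against 11.09 and 10.54, so the difference was -0.95 from untreated 1 and -0.40 from untreated 2. RNA of a whole culture cannot tell a change in the share of cells in G1 from a change of the level per cell, which holds for each gene here.

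CCND2, a second D-type cyclin, gave the 1 call among the members. On 11719199_a_at it fell to 5.80 in the treated array, against 6.89 and 7.42 in untreated 1 and untreated 2. The treated signal is below the filter of 5.85. The difference was -1.36 ± 0.27 (SE from limma, adjusted p = 0.0471), and no detection call shows whether the treated signal is above background. The adjusted p was 0.0819 after quantile normalisation, 0.0585 with arrays centred on all probe sets and 0.0768 without a filter, so the call was lost there. Over the alternatives that kept the probe set its adjusted p ranged from 0.0268 to 0.337. The brightest probe set, 11719198_s_at, had 11.35 in the treated array, against 11.78 and 12.29, a difference of -0.68 ± 0.27 (adjusted p = 0.239). On 11719197_at the treated array equalled untreated 1 within 0.05 (9.24, against 9.19 and 10.22). In contrast to CCND1, untreated 2 was the higher untreated array on every CCND2 probe set, by 0.50 to 1.03. CCND3, the third D-type cyclin, had 9.63 in the treated array, against 9.59 and 9.55, on its brighter probe set 11754434_a_at, a difference of 0.06 with a 95% interval from -0.45 to 0.57. Its other probe set, 11762304_a_at, was near the lowest signals of the arrays (4.01, against 4.16 and 3.95).

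Of the 4 probe sets of the E-type cyclin genes 3 were above both untreated arrays, 1 lay between them, and none of the 3 tested passed the threshold. CCNE1, whose product activates CDK2, had 8.97 in the treated array on 11724407_s_at, against 8.07 and 7.52 in untreated 1 and untreated 2. The difference was 1.18 ± 0.28 (SE from limma, 95% interval 0.53 to 1.82, adjusted p = 0.0716), 2.26-fold higher, and 0.90 and 1.45 from the 2 untreated arrays singly. Its second probe set, 11724406_a_at, was below the filter and untested, with 5.45 in the treated array, against 4.99 and 4.92. The treated array was thus the highest on both, and CCNE1 had the largest positive difference among the members. CCNE2, the second cyclin E gene, had 8.30 in the treated array on 11728300_at, against 7.84 and 7.06, a difference of 0.85 ± 0.33 (adjusted p = 0.226). On 11728301_a_at, however, it had 6.58 in the treated array, between 6.99 and 5.96. Untreated 1 exceeded untreated 2 by 0.77 and 1.03 on these 2 probe sets, so the distance from untreated 1 alone was 0.46 and -0.40.

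**Figure D2:**
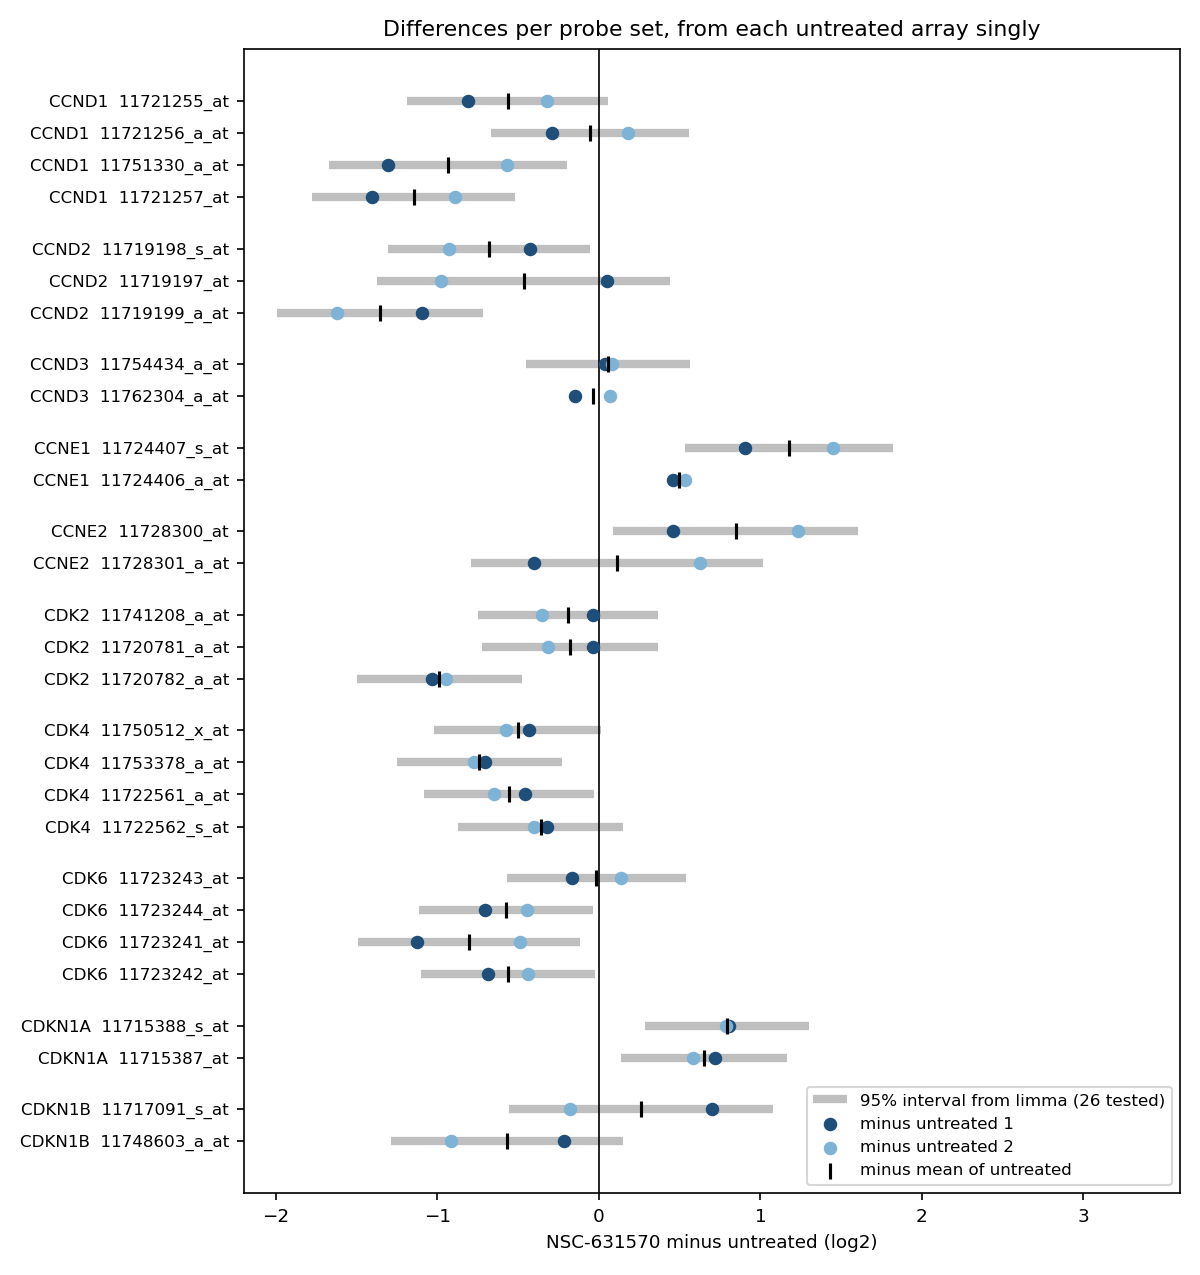
Difference of the NSC-631570 array from each untreated array singly (circles) and from their mean (black ticks), in log2, for the 28 member probe sets, with the 95% interval from limma in grey for the 26 tested. The intervals of CCNE1 11724407_s_at (0.53 to 1.82) and of both CDKN1A probe sets lie above 0, as does that of CCNE2 11728300_at, and those of 10 probe sets (3 of CDK6, 2 each of CCND1, CCND2 and CDK4, and 1 of CDK2) lie below it, before any adjustment for multiple tests.

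The start region of CCNE1 is shown because this gene was above both untreated arrays on each of its probe sets. It is the RefSeq window from 250 bases before to 50 after the annotated start (GRCh38.p14, chr19:29811741-29812040, plus strand). Capitals mark the GC box GGGCGG on either strand, the binding motif of SP1, of which it holds 7. Of 35116 such windows of all genes, 44.95% hold at least 1.
CCNE1: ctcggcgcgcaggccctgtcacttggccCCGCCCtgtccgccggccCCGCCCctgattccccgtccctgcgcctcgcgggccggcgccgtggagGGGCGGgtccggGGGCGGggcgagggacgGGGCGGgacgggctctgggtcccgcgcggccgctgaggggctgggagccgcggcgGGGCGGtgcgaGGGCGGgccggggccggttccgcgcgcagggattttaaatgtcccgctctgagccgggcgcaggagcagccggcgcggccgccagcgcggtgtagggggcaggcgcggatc
No E2F site written TTTCCCGC, TTTGGCGC, TTTCGCGC or TTTGCCGC was in this window on either strand, and 3.315% of all windows hold one. Windows were taken for 6 of the 10 members, CDKN1A, CDKN1B, CDK4, CDK6, CCND3 and CCNE1, as 9 windows in all. The selection of member windows left out the chromosome that carries CCNE2, a filter not applied to the shares over all windows. A GC box was in 7 of the 9 and an E2F site of these exact spellings in 0. Variant spellings of the E2F site were not searched. The core GCGTG of the site bound by the aryl hydrocarbon receptor was in 4 of the 9, beside 36.54% of all windows. A match is a description of the letters and not evidence of binding.

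Among the kinase genes, CDK4, the main partner of D-type cyclins, was below both untreated arrays on all 4 probe sets. On 11753378_a_at it had 10.90 in the treated array, against 11.61 and 11.68 in untreated 1 and untreated 2, a difference of -0.74 ± 0.22 (SE from limma, adjusted p = 0.127), 1.67-fold lower. The brightest, 11750512_x_at, whose suffix marks probes that may cross-hybridise, had 11.14, against 11.57 and 11.71, a difference of -0.50. The other 2, 11722561_a_at and 11722562_s_at, stood at -0.56 and -0.36. No CDK4 probe set passed the threshold, but the untreated arrays were at most 0.19 apart on any of the 4, and the treated array lay at least 0.32 below the lower of them on each. The mean of the 4 was 10.92 in the treated array, against 11.40 and 11.52, a difference of -0.54 (95% interval -0.99 to -0.09, limma over 10604 genes, adjusted p = 0.257). The start region of CDK4 is shown because CDK4 was below both untreated arrays on each of its probe sets, none by less than 0.32 (GRCh38.p14, chr12:57752261-57752560, minus strand, written 5′ to 3′ along the gene). It holds 3 GC boxes, in capitals, all on the strand opposite to the gene.
CDK4: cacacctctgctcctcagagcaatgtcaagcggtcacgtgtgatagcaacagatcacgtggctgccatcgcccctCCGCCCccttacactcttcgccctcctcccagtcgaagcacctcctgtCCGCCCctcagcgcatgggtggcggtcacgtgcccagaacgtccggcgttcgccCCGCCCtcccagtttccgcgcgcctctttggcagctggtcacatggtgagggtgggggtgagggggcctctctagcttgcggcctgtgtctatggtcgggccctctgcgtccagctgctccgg

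CDK6, the second kinase of D-type cyclins, was lower on 3 of its 4 probe sets and not on the brightest. On 11723243_at it had 10.38 in the treated array, between 10.55 and 10.24 in untreated 1 and untreated 2. On 11723241_at it had 8.44 in the treated array, against 9.56 and 8.92, a difference of -0.81 ± 0.30 (SE from limma, adjusted p = 0.207). The remaining 2, 11723244_at and 11723242_at, stood at -0.58 and -0.56 (adjusted p = 0.249 and 0.258). Untreated 1 was the higher untreated array on all 4, by 0.25 to 0.64, as it was for CCND1.

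CDK2, the partner of E-type cyclins, differed by its probe set. On 11720782_a_at it had 7.80 in the treated array, against 8.84 and 8.75 in untreated 1 and untreated 2, a difference of -0.99 ± 0.22 (SE from limma, adjusted p = 0.0601), 1.98-fold lower. The 2 brighter ones, 11741208_a_at and 11720781_a_at, had 9.88 and 9.79 in the treated array and stood at -0.19 and -0.18 (adjusted p = 0.765 and 0.784). On these the treated array was within 0.04 of untreated 1, and untreated 2 was higher by 0.32 and 0.28. The dimmest probe set therefore carried most of the CDK2 difference.

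Of the inhibitor genes, CDKN1A had the most even values. On 11715388_s_at it had 11.15 in the treated array, against 10.35 and 10.37 in untreated 1 and untreated 2. On 11715387_at it had 9.59, against 8.86 and 9.00. The treated array was the highest on both, and the untreated arrays were 0.02 and 0.14 apart. The differences were 0.80 ± 0.22 (SE from limma, 95% interval 0.29 to 1.30, adjusted p = 0.106), 1.74-fold, and 0.65 ± 0.22 (0.13 to 1.17, adjusted p = 0.178), so neither passed the threshold over all probe sets. The mean of both was 10.37 in the treated array, against 9.61 and 9.69 (difference 0.72, 95% interval 0.28 to 1.17, limma over 10604 genes, adjusted p = 0.193). The start region of CDKN1A, a gene known for control through GC boxes, is given because both of its probe sets were above the untreated arrays by at least 0.58 (GRCh38.p14, chr6:36678464-36678763, plus strand). Its 4 GC boxes are in capitals, of which the 2 nearest the start overlap by 1 base. It also holds 1 aryl hydrocarbon receptor core, left in lower case.
CDKN1A: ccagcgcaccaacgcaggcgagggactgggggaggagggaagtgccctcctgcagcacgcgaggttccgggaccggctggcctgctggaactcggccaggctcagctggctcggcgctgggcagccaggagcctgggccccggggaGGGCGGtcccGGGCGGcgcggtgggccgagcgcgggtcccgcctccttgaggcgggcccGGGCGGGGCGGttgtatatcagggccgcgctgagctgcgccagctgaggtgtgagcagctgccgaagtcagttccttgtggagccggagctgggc

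CDKN1B, the p27 gene, had probe sets of opposite sign. On 11717091_s_at it had 10.72 in the treated array, between 10.02 and 10.90 in untreated 1 and untreated 2. On 11748603_a_at it had 9.11, against 9.33 and 10.03, a difference of -0.57 ± 0.31 (SE from limma, adjusted p = 0.399). Untreated 2 was the higher untreated array by 0.88 and 0.70, a gap larger than the difference of the treated array from the untreated mean on either probe set.

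The untreated arrays differed more in these genes than in most. The median gap between them was 0.39 over the 26 tested member probe sets, beside 0.19 over all tested probe sets, and 11 of 26 were at least 0.5 apart (42.3%, against 11.3%). Untreated 1 was higher on every probe set of CCND1, CCND3, CCNE1, CCNE2 and CDK6, and untreated 2 on every probe set of CCND2, CDK4, CDKN1A and CDKN1B. CDK2 was split. The gap was at most 0.14 on both CDKN1A probe sets and at most 0.19 on the 4 of CDK4.

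The brightest probe set of a gene and its other probe sets gave unlike accounts in the treated array. For each of the 8 members with several tested probe sets the difference on the brightest was above the median of the others, which was the case for 70% of the 7125 genes with several tested probe sets. The 10 brightest member probe sets had a median difference of 0.02, with 4 above and 4 below both untreated arrays. Over the brightest probe sets of all 11932 tested genes 51.7% were above and 22.5% below. The 10 include CCND3 and CCNE1, which have 1 tested probe set each, both of them above both untreated arrays. The other 16 tested, from the 8 remaining members, had a median of -0.56, with 1 above (6.25%) and 12 below (75%). For the other probe sets of the 7125 genes the shares were 32.2% above and 43.8% below. Over the 7125 genes the brightest had a median of 0.12 and 19 were called lower by limma (0.267%), while the 15323 others had a median of -0.05 and 618 were called lower (4.03%). The 5′ control signal of ACTB stood 1.37 lower in the same array, and the part of this shift in the member values was not tested. CDK4 (-0.50), CCND1 (-0.56) and CCND2 (-0.68) were below both untreated arrays on their brightest probe set too, whereas CDK6 (-0.02) was not and CDK2 (-0.19) was so by only 0.03.

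**Figure D3:**
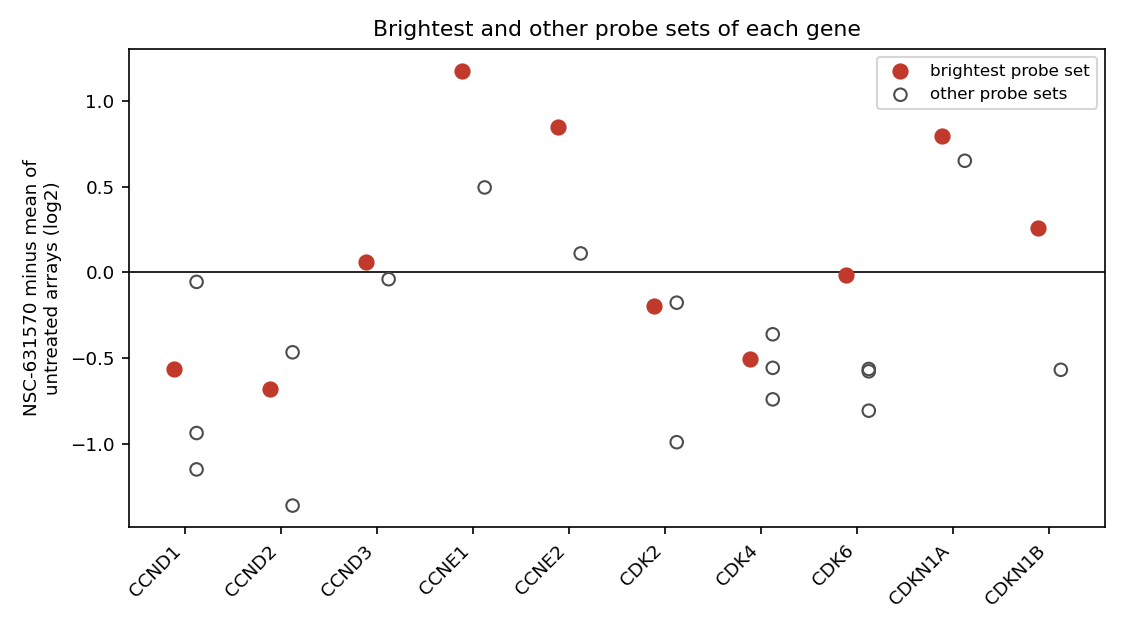
Difference of the NSC-631570 array from the mean of the untreated arrays (log2) for the brightest probe set of each member (filled) and its other probe sets (open). CCNE1 (1.18), CCNE2 (0.85) and CDKN1A (0.80) have the highest filled points, and the open points of CDK6 lie between -0.81 and -0.56 below a filled point at -0.02.

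Other genes of the pathway were taken from 8 lists by role, each gene by its brightest probe set. Of 100 listed, 94 were tested and limma called 0, beside 0.997% of all tested genes, with 5 higher and 6 lower at an unadjusted p under 0.05, where 11.5% of all tested genes were higher and 2.11% lower. Their median difference was 0.02, beside 0.12 over all 11932 tested genes. Of these, 34 were above both untreated arrays and 36 below both, where the shares over all genes were 51.7% and 22.5%.

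Among the 13 pocket protein and E2F genes the median was 0.09. RBL2, which encodes the pocket protein p130 of resting cells, stood at 0.43, the activating factor gene E2F1 at 0.43, its dimerisation partner gene TFDP2 at 0.42, and the repressive factor gene E2F4 at -0.41 (adjusted p from 0.368 to 0.419, limma). Of 5 other genes named as CDK inhibitors, CDKN1C (p57) stood at 0.70 and CDKN2A (p16 and ARF) at 0.58, and CDKN2D and CDKN3 at 0.14 and -0.02. CDKN1C and CDKN2A were above both untreated arrays, as CDKN1A was, and neither passed the threshold (adjusted p = 0.246 and 0.243). CDKN2A had 12.56 in the treated array, against 11.86 and 12.10. CDKN2B lay between the untreated arrays, with 6.97 in the treated array, against 6.41 and 7.53. Of the 5, 3 were above both untreated arrays, beside 51.7% of all tested genes. Of 8 genes of CDK activation, the phosphatase genes CDC25B and CDC25A stood at 0.60 and 0.22, and CCNH and MNAT1, subunits of the CDK-activating kinase, at -0.29 and -0.18. The other probe sets of CDC25B and CDC25A had medians of -0.10 and -0.19.

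Genes for the turnover of cyclins and inhibitors had a median of 0.15 over 17, beside 0.12 over all tested genes. Of the 17, 9 were above both untreated arrays and 5 below both. FBXO4, an F-box protein gene linked to cyclin D1 degradation, stood at 0.84 on its brightest probe set and at a median of -0.06 on its 2 others. The ubiquitin ligase genes CUL1, RBX1 and FBXW7, the last of which recognises cyclin E, stood at 0.45, 0.43 and 0.38. Their other probe sets had medians of 0.01, 0.22 and 0.06. Of 6 genes of the later cyclins and CDK1, CCNA1 stood at 0.53, CCNB1 at -0.20, CCNA2 at -0.19 and CCNF at 0.17. CCNA1 differed by 0.97 from untreated 1 and by 0.10 from untreated 2. The other probe set of CCNF stood at -0.72.

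Among 19 E2F target genes of S phase 8 were above the untreated mean, beside 66.0% of all tested genes, and the median was -0.07, while CCNE1 and CCNE2, also E2F targets, stood at 1.18 and 0.85 on their brightest probe sets. The largest differences were those of the replicative helicase genes MCM5 (-0.89, adjusted p = 0.0961) and MCM2 (-0.43), the origin gene ORC1 (-0.70) and the ribonucleotide reductase gene RRM1 (-0.33). CDKN1A is a p53 target too, and among 15 others that were tested the median was 0.14. Of these 15, 9 were above the untreated mean as CDKN1A was, with 7 above both untreated arrays and 6 below both. The largest differences were those of PLK2 (-1.21), GADD45A (-1.05), GADD45B (-0.70) and SESN2 (-0.61), all stress-inducible genes and opposite in sign to CDKN1A. For these 4 untreated 2 was the higher untreated array, and from untreated 1 alone they differed by -0.66, -0.63, -0.04 and -0.01. The next largest, TP53I3 (0.60), TNFRSF10B (0.57) and PHLDA3 (0.52), had the sign of CDKN1A and were above both untreated arrays. The other probe sets of TNFRSF10B had a median of -0.06. Among 11 upstream regulators, FOXO3, a forkhead factor gene that promotes arrest through p27, had 9.39 in the treated array, against 10.46 and 10.33 (-1.01, adjusted p = 0.0591). FOXM1, a mitotic factor, stood at -0.53 and MYBL2, a cell cycle factor, at -0.49. SP1, whose product binds GC boxes, stood at -0.51 on the brightest probe set and at 0.47 as the median of its 2 others.

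**Figure D4:**
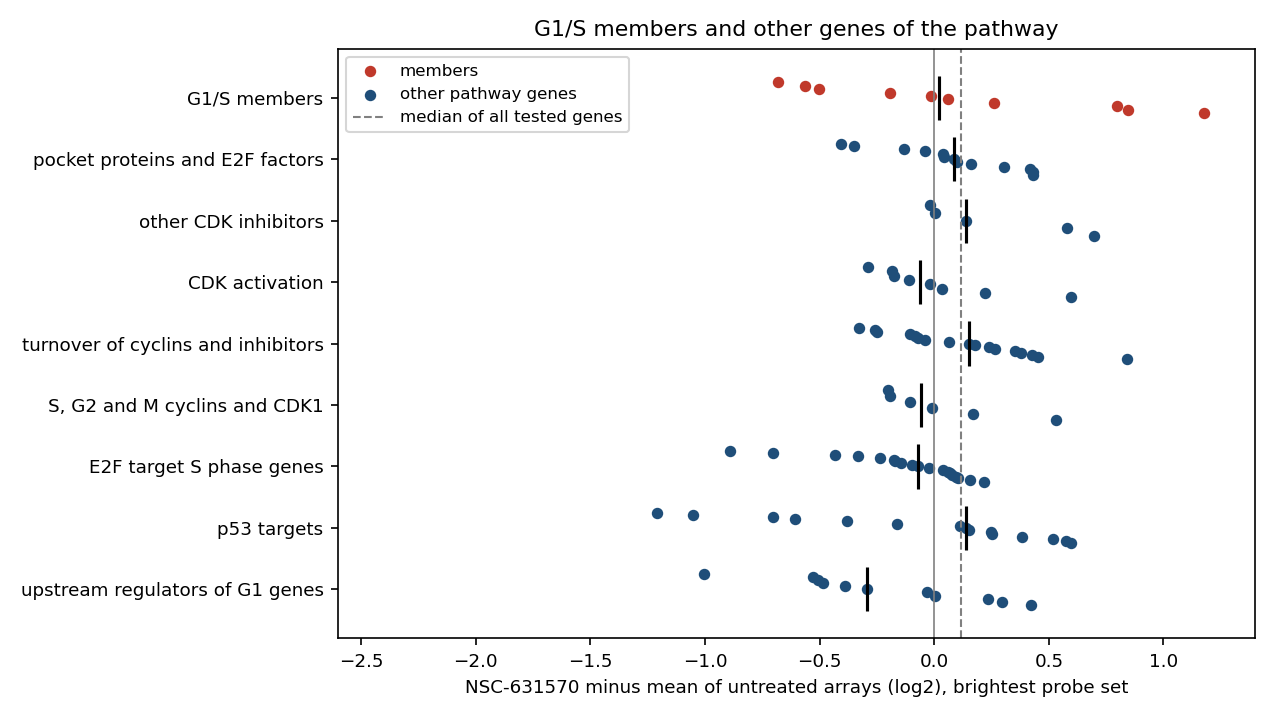
Difference of the NSC-631570 array from the mean of the untreated arrays (log2) on the brightest probe set, with a point per gene, for the 10 members and the 8 other lists of the pathway. Black bars are list medians and the dashed line the median of all tested genes (0.12). The members span -0.68 to 1.18, and the S phase genes have most points left of the dashed line.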

How the data were processed

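The authors deposited 1 log2 signal per probe set and array, made with Affymetrix Expression Console, per the submitters' processing notes. Neither its version nor the normalisation method is given in the sources used here. Values were used as deposited. Probe sets were named through the platform annotation: of 49395, 44994 named 1 gene. Fits used limma (version 3.58.1, R version 4.3.3) on probe sets naming 1 gene with a mean at or above the 40th percentile (5.85), with Benjamini-Hochberg adjustment over 27255. The residual variance has 1 degree of freedom and was moderated towards a prior SD of 0.19 (6.62 prior degrees of freedom). Fits were tested on simulated data. The number of arrays limits precision.

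The members and gene lists were chosen with earlier results of these data known. Named genes are all members and, per list, up to 4 with the largest absolute difference on the brightest probe set, the one with the highest mean over the 3 arrays. Further genes were named beside these among the p53 targets and the other CDK inhibitors. Promoter windows are from RefSeq (GRCh38.p14). Alternatives were other normalisations, filters, units of the fit, prior variances and bounds, and each untreated array left out. Genes without a probe set naming them alone were not analysed here.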

Additional observations from a re-analysis of the deposited data

How the results depend on the processing

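The count of member probe sets past the threshold of limma, 1 as reported, was 0 after quantile normalisation, with arrays centred on all probe sets, without a filter, with the 60th percentile filter, with the brightest probe set per gene, with the mean of probe sets per gene and against a bound of 0.5. It was 3 with arrays centred on the tested probe sets (CCND2, CDK2 and CCND1 probe sets, all lower) and 1 with a trended prior variance. The count of other pathway genes, 0 as reported, was 1 (FOXO3, lower) with arrays centred on the tested probe sets and 1 with a trended prior variance. The CCND2 probe set called in the main fit did not pass the 60th percentile filter, so it was not retested there. Nor was it retested singly with the brightest probe set or the mean of probe sets per gene. Leaving out an untreated array leaves no residual degrees of freedom, so no test was run in that case. The count of member probe sets at least 2-fold outside both untreated arrays, 1 as reported, was 6 by the 1.5-fold rule, 0 on the brightest probe sets alone (an alternative chosen after seeing the data), and 3 to 5 without 1 of the untreated arrays. On the brightest probe set, CDK6 turned from -0.02 to 0.0275 with arrays centred on all probe sets and ranged from -0.17 to 0.14 without 1 of the untreated arrays. CDKN1B turned from 0.26 to -0.15 with the mean of probe sets per gene and ranged from -0.18 to 0.70 without 1 of the untreated arrays. The cause was not tested. The other 8 members kept their direction on the brightest probe set under the normalisations, the mean of probe sets and each untreated array singly. No detection call was possible, so signals near the filter carry no lower bound.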
